A study of Mus musculus with 23 samples.

Results

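VQ-D2 and VQ-D5 are transplantable mouse models of multiple myeloma, a cancer of plasma cells, the antibody-secreting end stage of the B cell lineage. The comparison took the 4 libraries labelled VQ-D2 and the 4 labelled VQ-D5, 8 of the 23 RNA-seq libraries of the series. Both lines have the same genotype: the Vκ*MYC transgene, 1 copy of an Nras allele with a Cre-removable stop and the Q61R change (NrasLSL Q61R/+), and IgG1-Cre. Donor cells were transplanted into recipient mice, and CD138+B220- cells were sorted from spleen (VQ-D2 replicates 1 and 2), bone marrow (VQ-D5 replicates 1 and 2) and lymph node (LN; replicates 3 and 4 of both lines). The other libraries, used to estimate spread and tissue effects, are 4 each of VQ-D1 and VQ-D4 (same genotype), 4 of t-VK12653 (Vκ*MYC without the other alleles) and 3 controls (IgG1-Cre alone, bone marrow). Ages were not given in the labels. The series title speaks of 2 clusters of VQ myeloma, and the labels do not say which line belongs to which. Mouse numbers in the names of the deposited tables place replicates 1 and 3 of each line in 1 recipient and replicates 2 and 4 in another. A difference between the lines is therefore a difference between the tumours of 2 donors, and p-values measure the spread between libraries, which may in part be technical.

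As background, Vκ*MYC needs somatic hypermutation, which B cells use in germinal centres, before MYC protein can be made, and IgG1-Cre acts in B cells that transcribe the IgG1 constant region. Tumours of 1 genotype can thus arise from different single B cells. Plasma cells depend on the transcription factors Irf4, Xbp1 and Prdm1, load the endoplasmic reticulum with immunoglobulin, and shut down much of the B cell programme, including antigen presentation on MHC class II. MYC drives ribosome synthesis and growth, and NRAS with the Q61R change holds RAS in its active form and feeds the MAPK cascade.

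The 8 libraries held 4141275 to 8756143 counts, of which 16.6% to 21.5% were the ribosomal precursor Rn45s, and 13943 to 17188 genes had a count. Most genes were detected in VQ-D2 replicate 2 (17188, against 13943 to 14402 in the other VQ-D2 libraries). Levels are given as TMM-scaled counts relative to library size (CPM), with a log2 difference of VQ-D2 minus VQ-D5 ± its SE from edgeR's quasi-likelihood fit on all libraries unless LN is named. Plasma cell markers were present in all 8 libraries: Sdc1, which encodes the sorted antigen CD138, lay at 252 to 406 CPM in VQ-D2 and 333 to 413 CPM in VQ-D5, and the B cell antigen Ms4a1 did not exceed 0.149 CPM in any. Of other cell types, 17 neutrophil markers summed to 86.2 and 143 CPM in the VQ-D5 marrow libraries, 4.85 and 5.25 CPM in the VQ-D5 LN libraries, and 9.12 to 29.8 CPM in VQ-D2. Monocyte and macrophage markers (18 genes) summed to 43.8 to 105 CPM in VQ-D2 and 19 to 24.8 CPM in VQ-D5. Among them Cd68 lay at 33.7 to 82.1 and 7.57 to 12.7 CPM, and the defining markers Lyz2 and Csf1r did not exceed 8.26 and 1.73 CPM. T and NK cell markers (21 genes) summed to 126 to 214 CPM in VQ-D2 and 72.5 to 112 CPM in VQ-D5, with Cd3e at or under 0.388 CPM in all 8. The part of these cells in the line differences was not tested, and in sorted bulk samples fewer cells of a type and less RNA per cell cannot be told apart.

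Both genes of the engineered genotype differed in level. Myc, which the transgene also encodes, was measured at 3494, 3527, 3384 and 3505 CPM in VQ-D2 replicates 1 to 4 and at 1062, 1267, 1084 and 1238 CPM in VQ-D5. Every VQ-D2 library lay above every VQ-D5 library, and the log2 difference was 1.55 ± 0.15 (adjusted p = 3.2e-08), with 1.61 ± 0.11 in LN alone (adjusted p = 1.6e-05). No label or file header says how transgene reads enter the Myc count. Nras (chr3:103058285-103067914, GRCm38) went the other way, at 81.9, 78.2, 91 and 98.6 CPM in VQ-D2 and 116, 139.6, 114 and 129 CPM in VQ-D5 (log2 difference -0.50 ± 0.11, adjusted p = 0.0013). The groups did not overlap, but in LN alone the Nras difference did not pass the threshold (-0.31 ± 0.12, adjusted p = 0.087). Fitted on the 8 libraries with line and tissue terms, the difference did not pass either (adjusted p = 0.0718). The counts do not separate the 2 alleles. The mean Nras level was 42.3 CPM in VQ-D1, 51.1 CPM in VQ-D4 and 43.5 CPM in t-VK12653, each below the lowest of the 8 libraries.

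Across all genes, 2396 of 12867 tested genes were higher in VQ-D2 (18.6%) and 2574 were lower (20.0%) at an adjusted p under 0.05 (edgeR). Of these, 1299 and 844 differed at least 2-fold. With counts summed per recipient, which leaves 2 sums for each line, 1601 of 14283 were higher and 1514 lower. Without VQ-D2 replicate 2 and both VQ-D5 marrow libraries, a setting chosen after the data were seen, 1418 were higher and 2155 lower. In the LN libraries alone, where both lines were sampled from the same tissue, 1871 of 11380 tested genes were higher (16.4%) and 1781 lower (15.7%). Leaving out VQ-D2 replicate 3 left 1210 higher and 1008 lower genes in LN, and leaving out replicate 4 left 1226 and 1083. All 3377 genes called in both fits had the same direction in both; the fits share the LN libraries. The median log2 difference over all tested genes was -0.011 in the fit of all libraries and 0.010 in LN.

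Differences within a line were far fewer. VQ-D2 cells from LN and spleen differed in 3 of 11660 genes (0.0257%): Cpd, a carboxypeptidase (49.3 and 28.9 CPM in LN), and Lrp8, a lipoprotein receptor (30.6 and 29.1 CPM), were higher in LN, and Serpini1 was lower (36.7 and 38.4 CPM). VQ-D5 cells from LN and marrow differed in 4 genes (0.0343%), all lower in LN. Of those 4, Elane, Mpo and Ngp are neutrophil granule genes and part of the neutrophil RNA described above, and Tmed3, a cargo receptor of the secretory pathway, was at 8.38 and 7.46 CPM in LN against 25.9 and 25 CPM in marrow. At an unadjusted p under 0.05 these site contrasts held 727 and 589 genes. With recipient as a block, 269 and 118 genes passed. Between the 2 recipients of a line, 419 of 11660 genes differed in VQ-D2 (3.59%) and 552 in VQ-D5 (4.73%) in a fit added after the data were seen, in which 2 libraries of 1 mouse stand for each recipient.

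**Figure D1:**
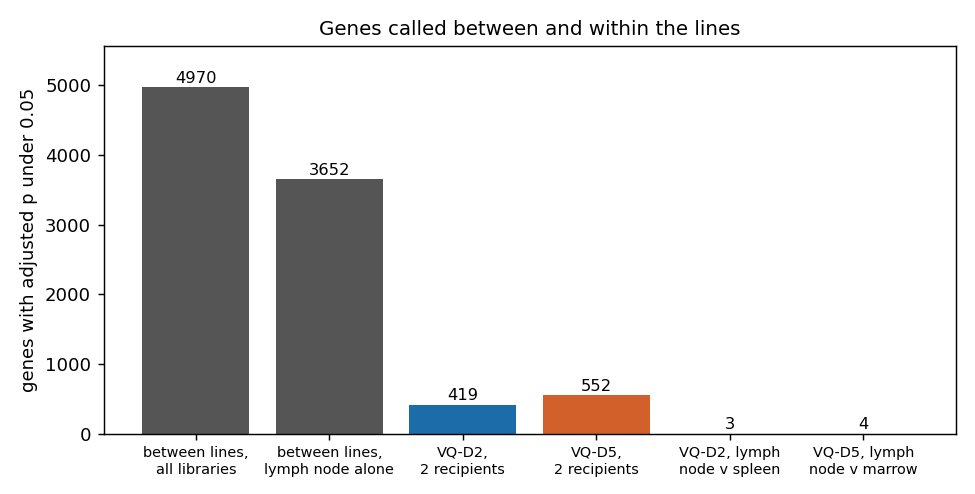
Number of genes with an adjusted p under 0.05 (vertical axis, from edgeR's quasi-likelihood test) in the 2 comparisons between the lines and in 4 comparisons within a line. The lines differed in 4970 and 3652 genes, the recipients of 1 line in 419 and 552, and the sites of 1 line in 3 and 4. The recipient bars come from a fit that also holds site, and the site bars from a fit without recipient, so they are not like for like. With recipient as a block the sites differed in 269 and 118 genes.

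The largest differences were genes read in 1 line and nearly absent from the other. Among named protein-coding genes of at least 10 CPM whose 4 and 4 values did not overlap and which passed in both fits, the 15 highest and 15 lowest log2 differences are shown in the plot of leading genes. Several of the VQ-D2 genes belong to the germline, the cells that form sperm and eggs. Tex101, a surface glycoprotein of male germ cells, had 319.6, 324, 290.3 and 296 CPM in VQ-D2 and 1 read in all VQ-D5 libraries, a ratio of 7666 (95% counting interval 1376 to 302840.0). Mov10l1, an RNA helicase needed to make piRNAs, the small RNAs that silence transposons in the germline, stood at 309, 321, 307 and 316 CPM against 0, 0.689, 0.393 and 0.233 CPM (9.50 ± 0.40, adjusted p = 1.4e-13). Piwil2, a PIWI protein that binds piRNAs, had 235 ± 22.2 CPM (SD, n = 4) in VQ-D2 and 0.804 ± 0.487 CPM in VQ-D5 (7.82 ± 0.33, adjusted p = 2.3e-13). Adad2, a testis RNA-binding protein, and Tex13 followed the same pattern, with 41, 45.5, 46 and 39.7 CPM of Adad2 and 57.3, 62, 41.1 and 47.5 CPM of Tex13 in VQ-D2 and 2 reads and 1 read in VQ-D5. Rnf17, a tudor-domain protein of germ cells that was picked after its values were seen, had 41.9 CPM in VQ-D2 and 0.145 CPM in VQ-D5.

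Of 30 germline and cancer-testis genes listed, 8 passed the filter on low counts. In the fit of all libraries 4 were higher in VQ-D2 (Tex101, Piwil2, Brdt and Tdrd1) and none lower, and the median of the 8 was 1.16, beside 18.6% higher and 20.0% lower over all genes. The filter keeps a gene that is high in 1 group alone, as Tex101 was, at or under 0.691 CPM in the mean of every other group. The direction of such members is fixed by the filter, so nothing is read from the counts and the median of this list. Tdrd1, a scaffold protein of piRNA production, was present in both lines, at 101, 124, 107 and 101 CPM in VQ-D2 and 47, 50.3, 47.6 and 49.3 CPM in VQ-D5, and at or under 0.504 CPM in the mean of every other group. Ddx4, the germ cell helicase that defines the lineage, did not exceed 0.579 CPM in any of the 8 libraries. The 22 listed genes that did not pass the filter include all the Magea genes.

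Several other genes read in VQ-D2 and nearly absent from VQ-D5 serve cell shape and guidance. Sema3e, a secreted guidance cue, had 89.2, 116, 125 and 122 CPM against 1 read, and Ephb4, a receptor for ephrin-B2, had 42.8, 50.3, 45.6 and 44 CPM against 3 reads. Palld, Pls3 and Mical2 bind or modify actin. Pls3 (plastin 3) had 30.6, 17.8, 40.3 and 26.3 CPM in VQ-D2 and no read in any VQ-D5 library, at least 232-fold higher against a floor of 3 counts over the 4 libraries. Cdh19, a cadherin, was at 49.5 CPM, and the lectin Clec2f and the X-linked transcript Pet2 were at 275 and 182 CPM, with 1, 4 and 3 reads in VQ-D5. Prkaa2 encodes a catalytic subunit of the energy sensor AMPK and was at 33.4, 45.1, 33.2 and 33.4 CPM against 1 read. In the list of cadherins, ephrins, semaphorins and guidance genes, 9 of 27 tested members were higher in VQ-D2 and 2 lower, with a median of 0.43. Over all genes 18.6% were higher and 20.0% lower. Some members passed the filter on low counts through VQ-D2 alone, such as Sema3e, at or under 0.158 CPM in the mean of every other group. Robo1, a receptor for SLIT proteins, stood at 235, 179, 135 and 125 CPM against 0.479, 2.3, 0.131 and 0.35 CPM, and Sema6d at 54.7 against 3.14 CPM. The ephrin receptor Epha2 was lower in VQ-D2, at 0.746, 1.16, 0.582 and 1.73 CPM against 34.7, 34.4, 53.4 and 39.5 CPM (-5.46 ± 0.49, adjusted p = 5.7e-08).

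The 15 leading genes of the other direction were read in VQ-D5 and nearly absent from VQ-D2. Scn11a, a voltage-gated sodium channel of sensory neurons, had 292, 193, 281 and 124 CPM in VQ-D5 replicates 1 to 4 and 6 reads in VQ-D2, all in replicate 2. Tspan7, a tetraspanin, had 50.3, 54.2, 53.1 and 63.3 CPM against 1 read. Eya1, a transcriptional co-activator, had 132, 129, 140.4 and 139 CPM against 3 reads, again all in VQ-D2 replicate 2. Dst, a large protein that links the cytoskeleton to adhesion sites, was at 700.1 ± 93.7 CPM (SD, n = 4) in VQ-D5 and 3.92 ± 1.48 CPM in VQ-D2 (-7.47 ± 0.37, adjusted p = 1.1e-10). Pdia5, a disulfide isomerase of the endoplasmic reticulum, was at 127 against 0.219 CPM. Gpnmb, a membrane glycoprotein, varied most among the VQ-D5 libraries, at 225, 159, 181 and 60.8 CPM, and remained above all VQ-D2 libraries (0.647 to 1.64 CPM). Pdlim1 and Sccpdh had no read in VQ-D2, and their VQ-D5 levels of 11.6 and 10.3 CPM were at least 92.4-fold and 79.1-fold higher against the same floor. Ptpn13 (a tyrosine phosphatase), Sfrp4 (a secreted Wnt antagonist), Olfr157, Galnt12, Emp2 and Acsl3 with the overlapping gene Utp14b make up the rest of the 15, at 19.4 to 60.7 CPM in VQ-D5 and 1 to 5 reads each in VQ-D2. Values of overlapping genes are uncertain, since how reads were assigned to them is unknown: Acsl3 with Utp14b, Dst with Bend6, Hook1 with 9530080O11Rik, and Cstf2t with Prkg1.

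**Figure D2:**
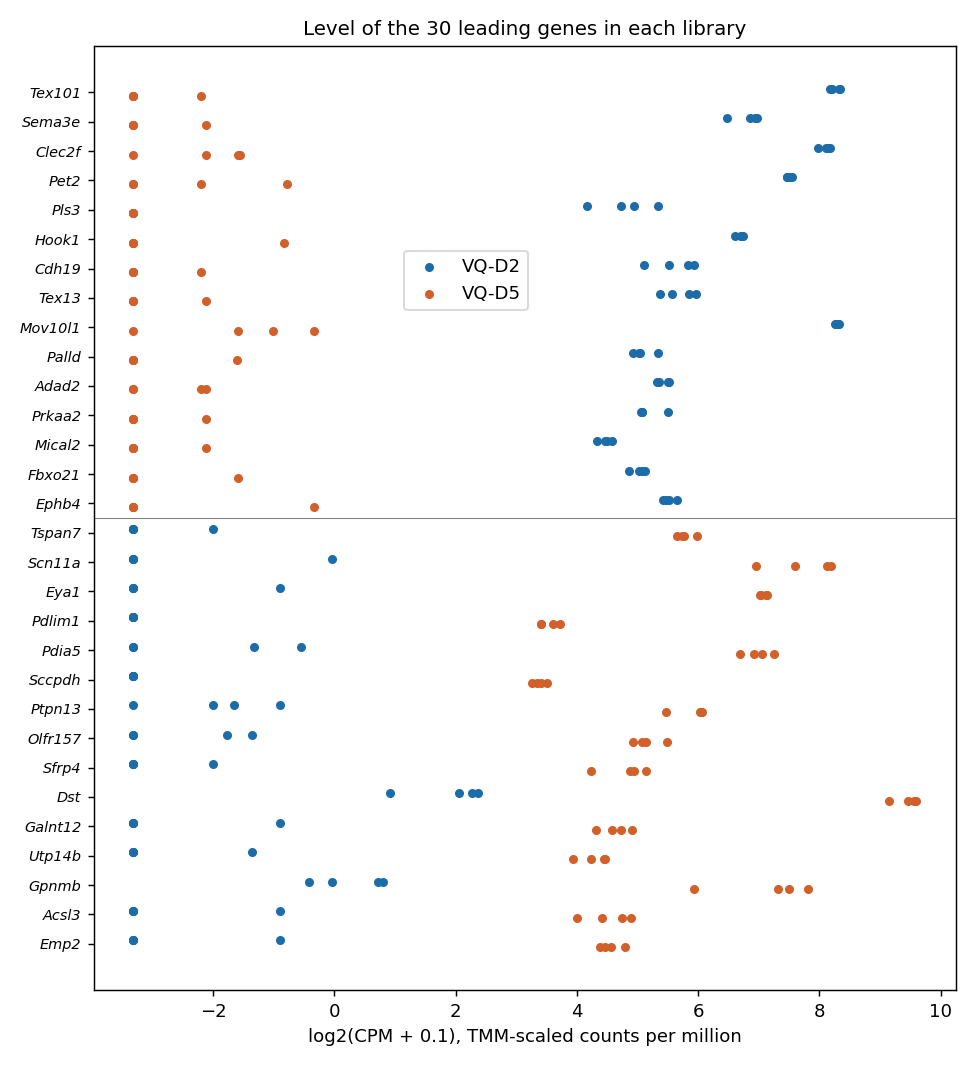
Level of each of the 30 leading genes in the 4 VQ-D2 libraries (blue) and the 4 VQ-D5 libraries (orange), on the horizontal axis as log2 of CPM plus 0.1. Each point is 1 library; the line separates the 15 genes higher in VQ-D2 from the 15 lower, and the colours do not overlap for any gene, as the choice of genes requires.

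Some of these genes set 1 of the lines apart from every group of the series. With 10 CPM or more in the mean of all other groups, controls included, and under 1 CPM in the line, 11 genes set VQ-D2 apart and 8 set VQ-D5 apart. Hook1, an adaptor between endosomes and microtubules, lay between 65.6 and 121 CPM in the means of the other groups, at 97.3, 105, 105 and 107 CPM in VQ-D2, and had 2 reads in VQ-D5. Cry1, a repressor of the circadian clock, was at 37.1, 31.9, 34.7 and 35.8 CPM in VQ-D2 and 0.24, 0.23, 0.131 and 0.117 CPM in VQ-D5 (7.53 ± 0.29, adjusted p = 1.1e-14). The other genes under 1 CPM in VQ-D5 were Cstf2t, Chst3, Fam172a, Mon1b, Fbxo21 and Ccdc92. In VQ-D2, Casc4 was at 0.746, 1.59, 0.582 and 1.08 CPM against 110.0, 115, 131 and 148 CPM in VQ-D5, and Prkacb, a catalytic subunit of protein kinase A, at 0.149, 0.579, 0.388 and 0.431 against 34, 23.6, 29.3 and 21.1 CPM. The rest were Abcd3, Kremen1, Mvb12b, Slc7a8, Pik3cb, Acot11, Abca5, Sccpdh and 5430417L22Rik. In the reverse class, 10 CPM or more in 1 line and under 1 CPM in the mean of every other group, VQ-D2 had 21 genes, Tex101, Mov10l1, Rnf17, Adad2, Prkaa2 and Sema3e among them, and VQ-D5 had 9, Scn11a and Tspan7 among them. These 2 classes were formed after the data were seen, and no test was made of them.

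The bases before a listed transcription start of 6 such genes are shown because each was read in 1 line and nearly absent from the other. They are the 250 bases before 1 start that RefSeq's promoter table lists for each gene (GRCm38.p6). The RefSeq gene models of Mov10l1, Adad2 and Hook1 begin within these windows, so part of each lies inside the gene. The letters run 5′ to 3′ on the strand that the table gives, with each CG dinucleotide, the site of DNA methylation in mammals, in capitals. As a check, transcribed bases after each start were looked for in GENCODE transcripts of the gene. They were found for every window shown except that of Adad2. Methylation was not measured here.
Tex101, read in VQ-D2 (chr7:24672051-24672300, minus strand): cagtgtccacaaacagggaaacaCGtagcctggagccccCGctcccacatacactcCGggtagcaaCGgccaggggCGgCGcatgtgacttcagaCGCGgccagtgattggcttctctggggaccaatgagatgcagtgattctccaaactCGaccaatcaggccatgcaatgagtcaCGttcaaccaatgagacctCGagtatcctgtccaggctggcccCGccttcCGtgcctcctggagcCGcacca
Mov10l1, read in VQ-D2 (chr15:88982744-88982993, plus strand): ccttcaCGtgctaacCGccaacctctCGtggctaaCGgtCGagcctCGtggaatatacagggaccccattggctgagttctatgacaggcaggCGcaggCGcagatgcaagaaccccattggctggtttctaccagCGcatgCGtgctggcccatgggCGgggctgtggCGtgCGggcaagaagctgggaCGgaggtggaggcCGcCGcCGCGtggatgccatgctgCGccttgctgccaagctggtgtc
Adad2, read in VQ-D2 (chr8:119612463-119612712, plus strand): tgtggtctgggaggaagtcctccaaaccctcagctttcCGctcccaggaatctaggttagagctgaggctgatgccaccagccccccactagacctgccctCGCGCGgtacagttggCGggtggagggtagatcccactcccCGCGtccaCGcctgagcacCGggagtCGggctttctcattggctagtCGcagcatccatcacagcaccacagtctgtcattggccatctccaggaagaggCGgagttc
Hook1, nearly absent from VQ-D5 (chr4:95967129-95967378, plus strand): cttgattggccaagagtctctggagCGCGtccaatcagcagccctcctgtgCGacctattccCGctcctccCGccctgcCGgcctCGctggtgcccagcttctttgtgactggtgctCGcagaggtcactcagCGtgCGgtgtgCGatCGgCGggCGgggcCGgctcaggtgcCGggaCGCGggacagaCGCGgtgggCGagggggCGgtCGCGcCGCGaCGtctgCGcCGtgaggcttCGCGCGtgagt
Cry1, nearly absent from VQ-D5 (chr10:85185055-85185304, minus strand): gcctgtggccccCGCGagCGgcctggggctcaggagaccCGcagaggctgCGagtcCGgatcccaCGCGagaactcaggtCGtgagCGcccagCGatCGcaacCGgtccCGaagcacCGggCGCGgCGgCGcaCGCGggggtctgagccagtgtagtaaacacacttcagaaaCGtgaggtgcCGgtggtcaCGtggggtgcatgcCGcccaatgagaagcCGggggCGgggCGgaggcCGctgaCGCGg
Ldhb, nearly absent from VQ-D2 (chr6:142507958-142508207, minus strand): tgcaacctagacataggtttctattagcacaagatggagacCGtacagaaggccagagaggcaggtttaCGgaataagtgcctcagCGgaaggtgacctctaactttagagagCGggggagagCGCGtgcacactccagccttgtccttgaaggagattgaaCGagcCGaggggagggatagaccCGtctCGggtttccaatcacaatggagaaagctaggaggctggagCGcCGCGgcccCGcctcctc
The 6 windows held 14, 19, 12, 32, 31 and 14 CG dinucleotides in this order, against a median of 6 over the 27025 genes with such a window. A count as high or higher occurred in 29.5% of windows for Tex101 and Ldhb, 19.5% for Mov10l1, 33.8% for Adad2, 4.36% for Hook1 and 4.93% for Cry1. The letters CACGTG, the E-box that MYC with its partner MAX can bind, which read the same on both strands and include 1 CG, occurred in the windows of Mov10l1 and Cry1 and in 6.04% of all windows.

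Genes of the interferon response were higher in VQ-D2. Of 23 tested members, 15 were higher and none lower (median 1.52, beside -0.011 for all genes). Over all genes 18.6% were higher and 20.0% lower. In LN 15 of 21 were higher, beside 16.4% over all genes there. Without VQ-D2 replicate 2 and both VQ-D5 marrow libraries 12 were higher and none lower. Irf9, the DNA-binding subunit of the complex that turns on interferon-stimulated genes, was at 34.9, 37.4, 30.6 and 33.2 CPM in VQ-D2 and 14.1, 11.7, 10.5 and 9.09 CPM in VQ-D5 (1.52 ± 0.15, adjusted p = 7.7e-08). Its values did not overlap between the lines. Among the targets, Gbp2 was at 32.2, 13.2, 44.2 and 76.4 against 3.83, 3.67, 4.45 and 5.13 CPM, and Ifi27, Oas3 and Ifi44 had log2 differences of 4.34, 3.06 and 2.65. Isg15 was low in both lines and was not called (2.11 and 0.937 CPM, adjusted p = 0.3).

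Genes of antigen presentation were higher in VQ-D2 too. For MHC class I, the molecules that show peptides from inside the cell to CD8 T cells, 11 of 21 tested genes were higher in VQ-D2 and none lower (median 0.42), with 12 of 21 in LN and 8 without VQ-D2 replicate 2 and the marrow libraries. The shares over all genes, for both MHC classes, were 18.6% higher and 20.0% lower. The heavy chain H2-K1 was at 799, 669, 726 and 872 CPM against 389, 332, 357 and 257 CPM (1.23 ± 0.17, adjusted p = 7.7e-06), and the light chain B2m at 637, 579, 599 and 669.6 against 412, 354, 359.6 and 269.8 CPM (0.84 ± 0.16, adjusted p = 0.00024). Values of the near-identical genes H2-Q6 and H2-Q7 (1.69 and 1.78) are uncertain, since reads could be split between them. The immunoproteasome genes Psmb8 and Psmb9 were not called (adjusted p = 0.82 and 0.63). For MHC class II, 5 of 11 tested genes were higher and none lower (median 3.03). Both lines were low in this class. The 13 genes summed to a mean of 516 CPM in VQ-D2 and 324 CPM in VQ-D5, against 4657 CPM in controls and 2974 to 6233 CPM in the other tumour groups. Cd74, the invariant chain, was at 33.6, 94.6, 43.4 and 89.3 CPM in VQ-D2 and 4.07, 11.7, 3.8 and 4.78 CPM in VQ-D5 (3.52 ± 0.41, adjusted p = 5.1e-06), far below the 3249.7 CPM of controls and the 2711, 2153 and 4589.6 CPM of VQ-D1, VQ-D4 and t-VK12653. H2-DMa and H2-DMb1, which load peptides, had log2 differences of 3.37 and 3.65. Markers of monocytes and macrophages, cells that can carry class II, summed to 66.7, 105, 43.8 and 93.6 CPM in VQ-D2 replicates 1 to 4 and to 22, 24.8, 20.2 and 19 CPM in VQ-D5. A large part of the VQ-D2 sums was the single gene Cd68. The sums were highest in replicates 2 and 4 of VQ-D2, as was Cd74. These replicates share a recipient, and Cd74 and Cd68 were among the 419 genes that differed between the VQ-D2 recipients (1.27 and 0.88). The shared pattern therefore cannot be told apart from a difference between recipients, and the part of these cells in the class II difference was not tested. Dendritic cell markers (14 genes) summed to 372 to 379 CPM in VQ-D2 and 233 to 283 CPM in VQ-D5. Most of that sum was Tcf4 (277 to 304 and 171 to 212 CPM), while the defining marker Flt3 did not exceed 1.15 CPM in any of the 8 libraries. Ciita, the master activator of the class, was under 1.2 CPM in all 8 libraries and was not called (adjusted p = 0.92).

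NF-kB genes, the survival pathway often mutated in myeloma, were higher in VQ-D2 for 9 of 20 tested members and lower for 1 (median 0.63). Over all genes 18.6% were higher and 20.0% lower. The subunits Rel (16.9, 15.1, 8.34 and 13.6 CPM against 1.92, 2.52, 1.31 and 1.98 CPM), Nfkb1 (0.73) and Nfkb2 (1.06) were higher, as were the feedback inhibitors Nfkbia (1.19) and Tnfaip3 (2.0). Without VQ-D2 replicate 2 and both VQ-D5 marrow libraries 5 members were higher, and Nfkb2, Nfkbia and Tnfaip3 did not pass (adjusted p = 0.145, 0.0678 and 0.111). Nfkb2 also missed the threshold without VQ-D2 replicate 4 (0.0745) and without VQ-D5 replicate 4 (0.0703). With recipient as a random block Nfkb2 and Tnfaip3 did not pass (0.0835 and 0.112), nor did Tnfaip3 with counts summed per recipient (0.0567). The single lower member was Traf3, a brake on the non-canonical branch, at 64.9, 59, 54.7 and 52.4 CPM against 101, 88.6, 102 and 85.1 CPM (-0.70 ± 0.11, adjusted p = 1.8e-05). Of cytokine receptor and JAK-STAT genes, 11 of 35 were higher and 2 lower (median 0.47), beside 18.6% and 20.0% over all genes. Jak2, Jak3 and Il2rg, the common gamma chain, had log2 differences of 1.42, 1.62 and 2.61, and Stat4 was at 11.9 against 0.456 CPM. The lower pair were Csf2rb, the shared beta chain of the IL-3, IL-5 and GM-CSF receptors, at 3.58, 0.579, 8.34 and 5.39 CPM against 218, 136, 144 and 70.1 CPM, and Stat5b, which carries signals from those receptors, at 21.5, 16.1, 21.3 and 22.2 against 159, 105, 174 and 127 CPM (-2.87 ± 0.18, adjusted p = 6.2e-11).

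**Figure D3:**
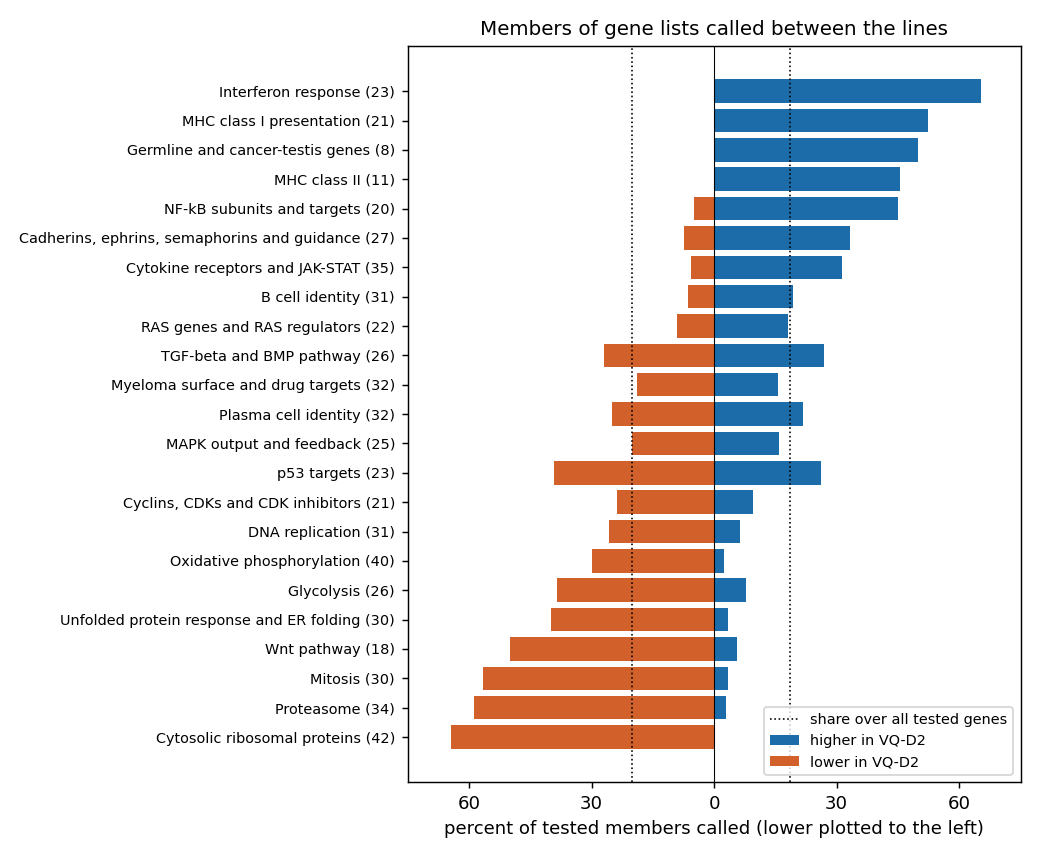
Share of the tested members of each gene list (number in brackets) that passed an adjusted p under 0.05, to the right where higher in VQ-D2 and to the left where lower. Dotted lines mark the share over all tested genes, 18.6% and 20.0%. Interferon and MHC lists extend to the right, and ribosomal protein, proteasome and mitosis lists to the left.

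Of 26 tested genes of TGF-beta signalling, 7 were higher in VQ-D2 and 7 lower (median -0.25), beside 18.6% and 20.0% over all genes. The receptor joins 2 kinds of chain, and the genes of the chains Tgfbr1 and Tgfbr2 differed in opposite directions. Tgfbr1, the signalling chain, was at 1.19, 1.3, 0.776 and 1.08 CPM in VQ-D2 and 80.3, 53.3, 64.4 and 40.6 CPM in VQ-D5 (-5.69 ± 0.30, adjusted p = 4.2e-12). Tgfbr2, the ligand-binding chain, was at 64.6, 66.2, 49.1 and 59.5 CPM against 28, 23.6, 17 and 16.3 CPM (1.77 ± 0.21, adjusted p = 1.0e-06). Of the intracellular signal carriers, Smad1 was at 2.98, 2.32, 1.16 and 3.67 against 50.8, 43.8, 58 and 50.0 CPM and Smad4 at 75, 66.2, 81.7 and 73.6 against 193, 171, 223 and 163 CPM, both lower in VQ-D2. The ligand Tgfb1 and the target Id2 were higher (1.63 and 4.66). In the Wnt list 9 of 18 tested genes were lower in VQ-D2 and 1 higher (median -1.11). The receptor Fzd7 was at 0.298, 0.579, 0 and 0 CPM in VQ-D2 and 17.5, 8.26, 16.8 and 6.53 CPM in VQ-D5, and the nuclear factors Tcf7l1 and Tcf7 were at 2.63 and 3.48 CPM in VQ-D5, against 0.163 and 0.984 CPM in VQ-D2. The Tcf7 call was lost with line and tissue terms over the 8 libraries (adjusted p = 0.0714), and in LN by DESeq2 (0.195) and with any 1 library left out (0.0832 to 0.216). In LN the Tcf7l1 call was lost by DESeq2 (0.0504) and without VQ-D2 replicate 3 (0.0889).

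For RAS genes and regulators, 4 of 22 were higher in VQ-D2, near the share of 18.6% over all genes, and 2 were lower, under the share of 20.0%. Hras was lower with Nras, at 42.7, 42.2, 39.4 and 37.3 CPM against 66.1, 70.5, 66.3 and 76.9 CPM, and the RAS inhibitors Nf1 and Rasal1 were higher (0.55 and 1.91). Of 25 genes of MAPK output and feedback, 4 were higher and 5 lower (median -0.10), near the 18.6% and 20.0% over all genes. Spry1, a feedback inhibitor, was at 33.1, 24, 24.8 and 22.7 CPM against 2.16, 1.84, 1.96 and 3.26 CPM, while Dusp2, a phosphatase of MAP kinases, was at 3.28, 2.03, 1.55 and 3.45 against 12, 20.2, 14.5 and 28 CPM.

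Of 32 plasma cell identity genes, 7 were higher in VQ-D2 and 8 lower (median -0.25), not far from the 18.6% and 20.0% over all genes. Irf4 (1107 and 1335 CPM, adjusted p = 0.13) and Xbp1 (1316 and 1576 CPM, adjusted p = 0.16) were not called. Prdm1 was lower in VQ-D2 by a narrow margin, and the call was lost in most alternatives. Tnfrsf17, which encodes BCMA, the target of antibody and CAR T cell therapy of myeloma, was at 5.52, 10.1, 5.43 and 14.5 CPM in VQ-D2 and 53.2, 76.4, 59.3 and 80.2 CPM in VQ-D5 (-2.79 ± 0.42, adjusted p = 5.2e-05). Its relative Tnfrsf13b, which encodes TACI, went the other way, at 107, 115, 87.3 and 92.8 CPM against 53.9, 48.4, 41.5 and 38.7 CPM (1.17 ± 0.14, adjusted p = 8.2e-07). Both receptors bind the survival factors BAFF and APRIL. Slamf7, the target of elotuzumab, was at 301 ± 42.2 and 298 ± 28.2 CPM (SD, n = 4) and was not called. Crbn, whose human protein is the target of lenalidomide, was at 342, 319, 349.9 and 288 against 217, 202, 233 and 204 CPM (0.64 ± 0.10, adjusted p = 2.2e-05). Ikzf1 and Ikzf3, whose human proteins are its substrates under the drug, had differences of -0.40 (adjusted p = 0.0069) and -0.09 (adjusted p = 0.86). Drug response of these mouse cells was not measured here. The Ikzf1 call was lost with counts summed per recipient (adjusted p = 0.125) and with line and tissue terms over the 8 libraries (0.0703).

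Of B cell identity genes, 6 of 31 were higher in VQ-D2, near the 18.6% over all genes, and 2 were lower, under the 20.0% over all genes. Ptprc, which encodes CD45 and its B220 form, was at 157, 209, 189.7 and 224 CPM in VQ-D2 and 2.4, 4.82, 2.23 and 1.05 CPM in VQ-D5 (6.36 ± 0.26, adjusted p = 4.7e-13). Sorting excluded the B220 form only. Cd24a was at 665, 551, 397 and 426 against 15.6, 9.64, 18.2 and 1.17 CPM, with a difference that did not pass in LN (5.49 ± 1.27, adjusted p = 0.086). Bach2, a repressor of plasma cell differentiation, was at 53.9, 59.3, 57.2 and 56.5 against 23.5, 19.5, 10.7 and 9.56 CPM, a call that was lost with counts summed per recipient (2.02 ± 0.71, adjusted p = 0.0711). Pax5, which defines B cells, was at or under 1.94 CPM in all 8 libraries. Of other lineage regulators, Runx3 was at 0.448, 0.869, 0.97 and 1.08 CPM in VQ-D2 and 130.3, 98.9, 139.6 and 81.6 CPM in VQ-D5 (-7.07 ± 0.46, adjusted p = 1.7e-09), and Pbx3, Irf8 and Prox1 were higher in VQ-D2 (4.64, 4.18 and 5.27). Adhesion genes Epcam and Cdh1, better known from epithelia, were higher in VQ-D2, with Epcam at 644, 1004, 617 and 936 against 34.3, 57.8, 51.7 and 89.3 CPM. Ezh2, the methyltransferase of histone H3 in Polycomb repression, was at 103, 99.4, 88.1 and 81.1 against 12.9, 25, 24.5 and 26.5 CPM (1.95 ± 0.28, adjusted p = 1.8e-05). Of the enzymes that write and remove DNA methylation, Dnmt3a and Tet2 were higher (1.02 and 1.01) and Tet1 was lower, at 0, 0.724, 0 and 0 against 12.7, 5.28, 10.1 and 8.16 CPM. The Dnmt3a call was lost without VQ-D2 replicate 2 and both VQ-D5 marrow libraries (0.65 ± 0.33, adjusted p = 0.161).

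**Figure D4:**
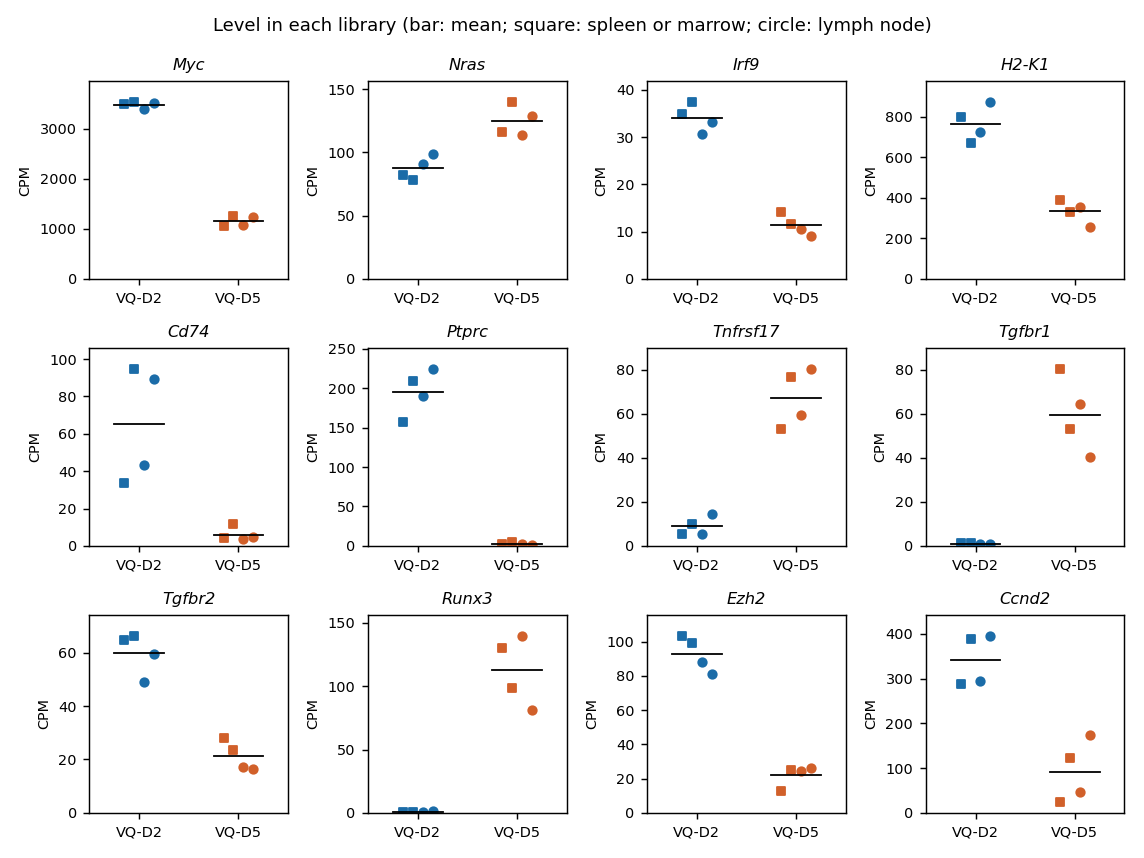
CPM (vertical axis, from 0) of 12 genes in each library of VQ-D2 (blue) and VQ-D5 (orange), with squares for spleen or marrow, circles for lymph node and bars for the mean of 4. Of these genes, Myc, Irf9, H2-K1, Cd74, Ptprc, Tgfbr2, Ezh2 and Ccnd2 lie higher in all VQ-D2 libraries, and Nras, Tnfrsf17, Tgfbr1 and Runx3 lie lower in all of them.

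Genes of the growth machinery were more often lower than higher in VQ-D2, the line with more Myc RNA, by small differences. Of 42 cytosolic ribosomal protein genes 27 were lower and none higher (median -0.43, in LN 19 of 42 lower). Of 34 proteasome genes 20 were lower and 1 higher (median -0.30, in LN 12 lower and 1 higher). Of 40 oxidative phosphorylation genes 12 were lower and 1 higher (median -0.17). Over all genes 20.0% were lower and 18.6% higher. In LN 7 of the 40 oxidative phosphorylation genes were lower, near the 15.7% over all genes there. Rpl8 was at 1681, 1719, 1480.0 and 1526 CPM against 2211, 2340.3, 2181 and 2158 CPM, and pseudogenes leave the values of single ribosomal protein genes uncertain. Psmb4, a proteasome core subunit, was at 132, 136, 152 and 152 against 259, 269, 280.5 and 285 CPM (-1.03 ± 0.09, adjusted p = 1.1e-08). The single higher proteasome gene, Psme1, encodes an interferon-induced activator (0.80 ± 0.14, adjusted p = 0.00016). For the unfolded protein response and folding in the endoplasmic reticulum, 12 of 30 genes were lower and 1 higher (median -0.20). In LN 7 of these 30 were lower and 2 higher. P4hb, a disulfide isomerase, was at 1311, 1660.0, 1426 and 1495 against 3439, 3229, 3278 and 2914 CPM and Herpud1, of the degradation complex, at 161, 232, 251 and 281 against 758, 628, 726 and 473 CPM, while the chaperone Hspa5 did not pass the test (-0.01 ± 0.13, adjusted p = 0.97). All of these medians are under 0.5 in size on the log2 scale. With counts summed per recipient, 7 ribosomal protein and 7 proteasome genes were lower, and without VQ-D2 replicate 2 and both VQ-D5 marrow libraries 17 and 14. Leaving out VQ-D2 replicate 4 left 17 ribosomal protein genes lower, and leaving out VQ-D2 replicate 3 left 12 proteasome genes lower.

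Mitosis genes were also more often lower. Of 30 mitosis genes 17 were lower in VQ-D2 and 1 higher (median -0.58; in LN 19 lower and 2 higher; 11 lower without VQ-D2 replicate 2 and the marrow libraries), with Cdc20 at 118, 85.5, 88.6 and 89.1 CPM against 206, 206, 194 and 228 CPM. Of 31 DNA replication genes 8 were lower (median -0.27), not far from the 20.0% over all genes, and 2 higher. The lower ones numbered 3 and 5 without VQ-D2 replicate 3 and without VQ-D5 replicate 1. The D-type cyclins differed in opposite directions: Ccnd2 was at 289, 388, 296 and 395 CPM in VQ-D2 and 24.4, 122, 45.7 and 174 CPM in VQ-D5, and Ccnd1 at 8.06, 5.79, 3.3 and 6.9 against 48.2, 37, 44.1 and 30.3 CPM. The Ccnd2 difference (1.99 ± 0.65, adjusted p = 0.026) did not pass in LN (adjusted p = 0.27) or with counts summed per recipient (0.239). It did not pass with line and tissue terms over the 8 libraries (0.254) or without VQ-D2 replicate 2 and the marrow libraries (0.189). It also missed the threshold without VQ-D2 replicate 4 (0.0581), without VQ-D5 replicate 3 (0.0734) and with replicate number as a block (0.0513). The Ccnd1 difference (-2.79 ± 0.29, adjusted p = 1.2e-07) passed in LN (adjusted p = 0.001). Both cyclins partner with Cdk4 and Cdk6, and Cdk6 was at 19.5, 39.8, 22.5 and 38.4 against 3.83, 3.9, 10.9 and 11.1 CPM. Ccne1 was lower in VQ-D2 (-1.98 ± 0.25, adjusted p = 6.0e-06). Of 23 tested p53 targets 9 were lower and 6 higher, beside 20.0% and 18.6% over all genes. Cdkn1a, which encodes the inhibitor p21, was at 0.895, 0.869, 5.04 and 3.45 against 19.9, 15.1, 33.9 and 23 CPM, Phlda3 at 1.96 against 13.7 CPM and Bax at 28.8, 26.7, 33.9 and 37.5 against 72.3, 64.3, 84.9 and 80.2 CPM, while Trp53 itself was 0.38 on the log2 scale (adjusted p = 0.0075; 0.052 in LN and 0.141 without VQ-D2 replicate 2 and the marrow libraries).

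In glycolysis, 10 of 26 genes were lower in VQ-D2 and 2 higher (median -0.30), beside 20.0% and 18.6% over all genes. Genes of lactate handling differed. Ldhb, 1 of the chains of lactate dehydrogenase, was at 0.597, 0, 0.194 and 0.647 CPM in VQ-D2 and 39.5, 28.5, 38.5 and 24.1 CPM in VQ-D5 (-6.52 ± 0.52, adjusted p = 1.2e-08), while Ldha, the other chain, was at 185, 184, 195 and 187 against 249.9, 313, 308 and 398 CPM. Slc16a3, a lactate exporter, was at 17.9, 27.2, 25 and 33.7 against 0.719, 0.459, 1.96 and 0.583 CPM, and Slc16a1, which carries lactate both ways, at 182, 175, 168 and 187 against 315, 362, 317 and 398 CPM. Hsd17b7 of cholesterol synthesis had 10.1 CPM in VQ-D2 and 1 read in VQ-D5. Trf, which encodes the iron carrier transferrin, was at 2972, 3722, 2968 and 2743 CPM against 1429.5, 1557, 1366 and 1182 CPM, and at or under 76.9 CPM in the mean of every other group.

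Chromosome 3 stood apart in its share of called genes, of which no test was made. On it, 25.7% of 618 tested genes were higher in VQ-D2 and 29.9% lower, the highest share in both directions among 20 chromosomes. Over all tested genes the shares were 18.6% and 20.0%. The chromosome 3 medians differed by -0.050 (VQ-D2 minus VQ-D5), and those of the 20 chromosomes by -0.092 (chromosome 15) to 0.047 (chromosome 8). The exact permutation test over 4 and 4 libraries cannot give a p under 0.0286, so that adjusted over 20 chromosomes it could hardly pass, and nothing is read from it. Windows of about 40 neighbouring genes, added after the data were seen, showed differences of both signs: medians ran from -0.59 to 0.52 over the 10 windows of chromosome 3, and 9 of them were beyond 0.25 in size, against 5 of 191 windows elsewhere.

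Split at the 2 positions that best divide the log2 differences, chromosome 3 had a proximal, a middle and a distal stretch. In the middle, from Plk4 to Gpsm2 (chr3:40799951-108722331), which holds Nras, the median difference over 259 genes was -0.44, with 143 genes lower (55.2%) and 26 higher. In the proximal stretch (chr3:5218218-40796103, 57 genes) it was 0.44, with 34 higher and 4 lower, and in the distal stretch (chr3:108902805-158067090, 103 genes) 0.48, with 56 higher and 8 lower. Over all tested genes, those under 10 CPM included, 18.6% were higher and 20.0% lower. Placing the borders on these same differences can raise the counts within the stretches. Relative to the mean of the 12 libraries of VQ-D1, VQ-D4 and t-VK12653, the middle stretch lay 0.59, 0.60, 0.61 and 0.55 higher in VQ-D2 replicates 1 to 4 and 0.97, 1.03, 0.99 and 0.96 higher in VQ-D5. The distal stretch lay 0.78, 0.67, 0.66 and 0.77 higher in VQ-D2 and 0.18, 0.19, 0.14 and 0.18 higher in VQ-D5. The proximal stretch lay 0.46 to 0.59 higher in VQ-D2 and -0.01 to 0.12 in VQ-D5. In the 12 other tumour libraries these medians stayed between -0.16 and 0.12. VQ-D2 was above the other tumour libraries in all 3 stretches, and VQ-D5 was above all of them in the middle and distal stretches, most in the middle. Such a rise was not particular to chromosome 3. Window means on chromosome 5 were 0.62 to 1.04 in VQ-D2 and 0.71 to 1.08 in VQ-D5, and on chromosome 8 0.40 to 0.87 and 0.39 to 0.95. Genes entered windows and stretches by their mean in the 8 libraries (at least 10 CPM), which can raise these values. The LN libraries alone gave 0.53, -0.40 and 0.53 for the 3 stretches. The positions were chosen on these values, so no test was made, and DNA copy number was not measured here.

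**Figure D5:**
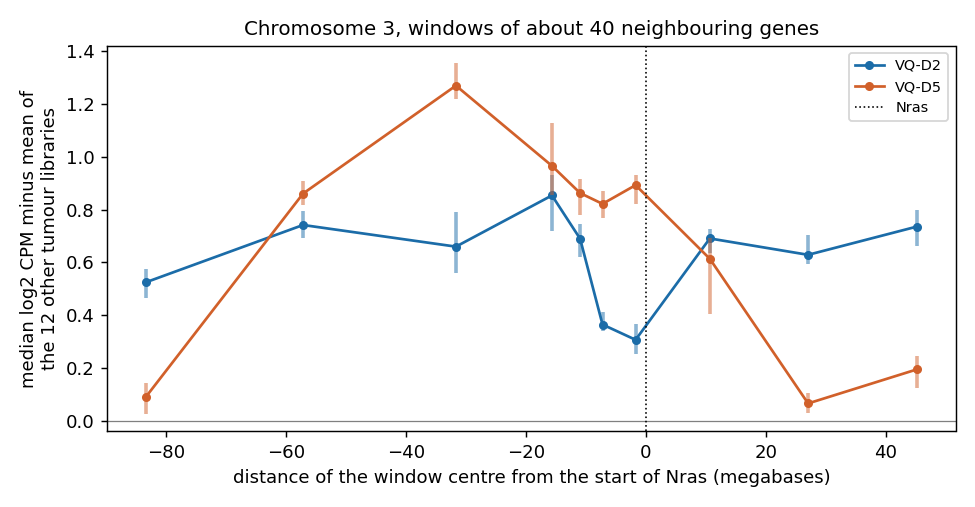
Median level of about 40 neighbouring genes on chromosome 3 (log2 CPM minus the mean of 12 libraries of the other tumour lines) against the distance of the window centre from the start of Nras, in megabases. Points are means of 4 libraries of VQ-D2 (blue) or VQ-D5 (orange) and vertical bars run from the lowest to the highest library; VQ-D2 stays between 0.31 and 0.85, and VQ-D5 runs from 0.066 to 1.27.

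The genes with the largest differences in each stretch of chromosome 3 went with their stretch in some cases and against it in others. In the distal stretch, where most genes were higher in VQ-D2, Abcd3, a peroxisomal transporter, was at 0, 0.29, 0 and 1.29 CPM in VQ-D2 and 41.4, 35.8, 38.1 and 37.7 CPM in VQ-D5, and Arhgap29 (-6.25) and Prkacb (-6.09) were lower too, while Erich3 was higher (5.70). In the middle stretch Gstm5 (-4.41) and Trim2 (-4.05) were lower and Kirrel (3.98) and Cd2 (2.94) higher, the last with an adjusted p of 0.0843 without VQ-D5 replicate 3 and 0.0707 without VQ-D5 replicate 4. In the proximal stretch Spry1, Mccc1 (2.84) and Gnb4 (2.44) were higher and Cp, which encodes the copper carrier ceruloplasmin, was lower (-4.16 ± 0.74, adjusted p = 0.00043; adjusted p = 0.1 in LN and 0.0525 with line and tissue terms over the 8 libraries). Cp varied between the VQ-D5 libraries, at 174, 109, 73.2 and 18.9 CPM.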

How the data were processed

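Total RNA of sorted CD138+B220- cells was sequenced from a stranded total RNA kit, per the labels' protocols. The submitters' processing notes name STAR, featureCounts, DESeq2 and the mouse build GRCm38 (mm10), without versions or settings. The authors deposited a table per sample with a raw count and a TPM value per gene, per the file headers; tests used the count columns of 24063 symbols, and the TPM columns entered no comparison. Genes were kept by edgeR's filterByExpr (count minimum 10, total 15), scaled by TMM and tested with edgeR 4.0.16 (R 4.3.3) in quasi-likelihood fits with Benjamini-Hochberg adjustment over all tested genes: line and tissue terms over all 23 libraries, and the 4 LN libraries alone. A gene was called at an adjusted p under 0.05. On simulated data with 100 genes changed 2-fold and 100 changed 4-fold, 66% and 98% were recovered for all libraries (12699 genes run). For LN 64% and 95% were recovered (11142 genes run). False calls numbered 14 for all libraries and 31 for LN. In both fits they made up a larger share of the calls than the 0.05 of the threshold, most in LN.

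Named genes were Myc and Nras, the 15 highest and 15 lowest called in both fits (no overlap, at least 10 CPM; predicted, small RNA, immunoglobulin, T cell receptor, Y-linked and Xist genes left out), up to 5 called members per list and direction with members named for their level, up to 4 genes of a stretch that stands apart, and genes without a read in 1 line. Some genes that this rule names are not reported here. Regulators and genes of other kinds outside this rule were chosen after their values were seen. The lists and the comparison itself were chosen with earlier results of these data known. Alternatives were other scalings, filters, tools (DESeq2 1.42.0, limma 3.58.1), designs and left-out libraries. Promoter windows came from RefSeq's GRCm38.p6 table; intervals and floors cover counting error only (95%).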

Additional observations from a re-analysis of the deposited data

Results flagged for a closer look

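Among 404 groups of 4 libraries examined for a value far from the other 3 (Dixon's criterion, which chance meets in about 1 in 20 groups), 16 were met. VQ-D2 replicate 2 had 17188 genes with a count, against 13943 to 14402 in the other VQ-D2 libraries. The same library had 45.1 CPM of Prkaa2 (others 33.2 to 33.4) and 16.1 CPM of Stat5b (others 21.3 to 22.2). In VQ-D2 replicate 1, Cdc20 was at 118 CPM (others 85.5 to 89.1) and Gpsm2 at 81.9 CPM (others 67.7 to 69.4). In VQ-D2 replicate 3 Prox1 was at 25.2 CPM (others 18.3 to 18.8), and in replicate 4 Pik3cb was at 2.16 CPM (others 0.435 to 0.597). VQ-D5 replicate 1 had 12.9 CPM of Ezh2 (others 24.5 to 26.5). VQ-D5 replicate 2, a marrow library, had 11.7 CPM of Cd74 (others 3.8 to 4.78), 7.57 CPM of Cd68 (others 12 to 12.7), 1.84 CPM of Fam172a (others 0 to 0.24) and 2.30 CPM of Robo1 (others 0.131 to 0.479). VQ-D5 replicate 3 had 4.72 CPM of Cdh1 (others 1.15 to 1.44). VQ-D5 replicate 4 had 2.33 CPM of Ccdc92 (others 0.393 to 0.479), 235 CPM of Psmb8 (others 266 to 273) and 44.1 CPM of Ptpn13 (others 65.6 to 67.1).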

How the results depend on the processing

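No named gene that was called in the main fit or in an alternative changed direction between them. Direction was not compared for genes called in neither. Of 150 named genes called in the fit of all libraries, 133 kept the call in every alternative that gave a value (LN: 125 of 143). Of the total counts, 1418 genes were higher without the 3 libraries that stand apart (VQ-D2 replicate 2 and the VQ-D5 marrow libraries), and 1514 were lower with counts summed per recipient. Leaving out 1 library at a time gave 2047 to 2290 higher and 2117 to 2337 lower genes over all libraries, and 1210 to 1687 higher and 1008 to 1575 lower genes in LN. In LN without replicate 3 or 4 of a line, the lone library is assumed to vary like the others. The site contrasts rested on few calls: VQ-D2 had 3 to 8 higher and 0 to 1 lower genes and VQ-D5 0 to 2 higher and 1 to 10 lower genes with 1 library left out, and scaling by RLE gave 5 higher genes in VQ-D2. With recipient as a block, which the mouse numbers allow within a line, 137 genes were higher and 132 lower in VQ-D2 LN, and 47 higher and 71 lower in VQ-D5 LN. Between the lines, replicate numbers do not mark shared animals. Same-numbered libraries still deviated together, though weakly: they correlated at 0.0904, 0.0707, 0.161 and 0.0858, and each VQ-D2 library correlated best with its own number. With the replicate block 2310 genes were higher and 2443 lower. In the fit of all libraries the named call lost in most alternatives was Prdm1, with an adjusted p of 0.049 in that fit and 0.0641 to 0.135 with 1 library left out. The calls of Ccnd2, Cdk4 and Nfkb2 were lost in several alternatives. In LN the call lost in most alternatives was Tcf7 (adjusted p = 0.0762 to 0.216). Scn11a and Gpnmb lost the LN call without VQ-D2 replicate 3 (adjusted p = 0.133 and 0.28) and without replicate 4 (0.133 and 0.289), as did Csf2rb (0.116 and 0.13). Without a filter the LN median over all genes was -0.197. Low counts limit genes near the floor of 0.128 CPM in VQ-D2 and 0.121 CPM in VQ-D5.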

Other observations

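The 2 recipients of each line differed in genes that partly recurred in the other line. Taking replicates 2 and 4 against replicates 1 and 3, 105 genes passed in both lines, which is 25.1% of the VQ-D2 calls and 19% of the VQ-D5 calls. Of these, 61 were higher in replicates 2 and 4 of both lines, 32 were lower in both and 12 went opposite ways. Ly6c2, a surface protein of the Ly6 family, was at 52.1, 242, 31.4 and 201 CPM in VQ-D2 replicates 1 to 4 and 1.68, 19.5, 1.18 and 15.6 CPM in VQ-D5. Ccnd2 was among the 105 genes, and its VQ-D5 values of 24.4, 122, 45.7 and 174 CPM alternate between the recipients. Tnfrsf17 was another. The labels do not say whether recipients of the 2 lines were handled together, and these comparisons, with 1 mouse on each side, were added after the data were seen.

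The Ly6 family differed between the lines too, with 5 of 9 tested genes higher in VQ-D2 and none lower, beside 18.6% and 20.0% over all genes. The call of Ly6c2 was lost with counts summed per recipient (adjusted p = 0.0503) and with line and tissue terms over the 8 libraries (0.177). Ly6k, known from testis, was at 45.1, 58.7, 51.4 and 37.3 CPM in VQ-D2 and 1.2, 0.23, 0.131 and 0 CPM in VQ-D5, and Ly6e at 1026, 1279, 856 and 1094 against 295, 396, 338 and 393 CPM.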
